A study of Homo sapiens with 12 samples.

Results

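A set of 10 transcription factor and early response genes was followed across 12 microarrays of human multiple myeloma cell lines. They were JUN, JUNB, JUND, FOS, FOSB, FOSL1, FOSL2, EGR1, ATF3 and IER2, and every probe set annotated to 1 of these symbols and to no other gene was taken. This gave 37 of the 49386 probe sets on the array, and all 10 genes were among the 15173 genes tested. The groups were cells given CPI203, an inhibitor of BET bromodomains, at 0.01 µM, cells given lenalidomide at 5 µM with dexamethasone at 0.05 µM (LenDex), cells given all 3 drugs (Combo), and control cells. Each group held 1 array of the lines ARP1, JJN3 and RPMI-8226, and treatment lasted 6 h, per the labels. Lenalidomide never came without dexamethasone, and what each of them did cannot be told apart. In this bulk RNA, fewer cells that make a transcript and less of it per cell cannot be told apart either.

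AP-1 is a family of dimers of basic leucine zipper proteins, in which a JUN protein pairs with another JUN, with a FOS protein or with a member of the ATF family. Several of its genes, FOS and JUN among them, are immediate early genes. Growth factor, stress and antigen receptor signals that pass through MAP kinases switch these on without new protein synthesis, and their transcripts are short-lived. CPI203 displaces BET proteins from acetylated histones, and the glucocorticoid receptor, the target of dexamethasone, is known to hold AP-1 activity down by contact with JUN and FOS. In B cells and plasma cells AP-1 members take part in activation and differentiation.

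The JJN3 and RPMI-8226 arrays were much more like each other than either was like the ARP1 arrays. Across the genes tested, pairs of arrays from JJN3 with RPMI-8226 had a Pearson r of 0.963 to 0.981, against 0.980 to 0.990 within JJN3, while pairs with ARP1 had 0.867 to 0.887. Single genes still told them apart: the fetal globin gene HBG1 was at 13.19 to 13.32 on JJN3 arrays and at 6.77 to 8.53 on RPMI-8226 arrays, and the T cell gene CD3D at 7.33 to 7.68 and at 5.05 to 5.39. The plasma cell gene SDC1 was at 11.78 to 12.26 on the ARP1 arrays and at 4.96 to 5.79 on the others, and PRDM1 at 10.96 to 11.55 and at 4.84 to 5.97. XBP1, TNFRSF17, CD38 and CAV1 were also highest in ARP1. The remaining plasma cell markers did not go this way. IRF4 was at 11.83 to 12.26 on the ARP1 arrays and at 12.37 to 13.31 on the others. SLAMF7 overlapped, at 9.57 in control cells of ARP1 and 9.99 in those of JJN3. The 6 B cell markers on the array summed, as log2, to 7.99 to 8.22 on the ARP1 arrays, to 13.38 to 13.61 on JJN3 arrays and to 12.96 to 13.29 on RPMI-8226 arrays. Over treatments, 1 of 8 plasma cell markers was called with CPI203 on average (CAV1, lower) and 1 with LenDex (SLAMF7, lower). Of all genes 7.28% and 4.25% were called. An unadjusted p under 0.05 in limma was seen for 6 of 8 and 1 of 8. TNFRSF17, not called, was at 11.62, 6.98 and 8.84 in control cells of ARP1, JJN3 and RPMI-8226. With CPI203 it was at 11.41, 5.52 and 5.55. No B cell marker was called with either treatment (2 of 6 and 0 of 6 had an unadjusted p under 0.05 in limma). Line names below are the labels of the arrays. The drugs left their known marks: HEXIM1, a transcript that BET inhibition raises, rose with CPI203 by 1.14 ± 0.22 (SE, adjusted p = 0.022), and the glucocorticoid target TSC22D3 rose with LenDex by 3.58 ± 0.24 (SE, adjusted p = 0.000224), both in limma over all 12 arrays. The HEXIM1 change was 0.23, 1.42 and 1.78 in ARP1, JJN3 and RPMI-8226, and it was no longer called without the JJN3 control array (1.09, adjusted p = 0.0677).

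Values are log2 probe set levels, and the median level on each array lay between 5.304 and 5.375. JUN, JUNB, JUND, EGR1 and IER2 lay above that median on all 12 arrays, and ATF3 on those of JJN3 and RPMI-8226. FOS, at 5.34 to 5.88 on the arrays without CPI203, stood clear of it with CPI203, and FOSB, FOSL1 and FOSL2 did so on none. FOSB lay between 4.99 and 5.49, FOSL1 between 4.74 and 5.64 and FOSL2 between 4.92 and 5.49, and none of them was above the 56.2 percentile of all probe sets on any array. Their 13 probe sets reached at most 5.66. Over the 8 comparisons between treatments, their changes lay between -0.12 and 0.37 on the log2 scale and the smallest adjusted p was 0.385. In the comparisons of a drug effect between lines their smallest adjusted p was 0.30, for FOSL2 with LenDex. No change in these 3 genes was detectable at these signals.

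The other genes differed between lines before any drug. In 3 values given side by side the order is ARP1, JJN3 and RPMI-8226. In control cells JUN, the founding AP-1 subunit, was at 6.66, 8.93 and 9.05. ATF3, a stress-induced member of the ATF family that pairs with JUN proteins, was at 5.17, 7.92 and 8.32. JUNB, which replaces JUN in many dimers and is a weaker activator, was at 7.13, 9.59 and 8.51. JUN, JUNB and ATF3 were thus lower on the ARP1 array than on both others. Over all 4 treatments ATF3 reached 6.33 at most in ARP1 and was never under 7.91 in the other lines, and the same gap held for JUN (8.04 against 8.93) and JUNB (7.18 against 7.28). JUND, the AP-1 subunit that resting cells usually hold, was close between control arrays, at 7.15, 7.76 and 7.32. The control levels of FOS (5.82, 5.51 and 5.47), of the zinc finger factor EGR1 (8.06, 8.48 and 7.76) and of IER2, a nuclear protein of the early response (9.90, 10.32 and 9.69) differed less between lines. A line has 1 control array, so these differences have no replicate check.

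The average effect of CPI203 asks what the BET inhibitor did over both backgrounds, with 6 arrays with the drug set against 6 without it in a fit that holds the line constant. JUN, JUNB, JUND, FOS, EGR1, ATF3 and IER2 rose, each with a higher mean in all 3 lines on the probe set used. As a share of the members this is 7 of 10, where 3.3% of all genes tested rose (500 of 15173). The median change of the 10 genes was 0.83, against 0.00 for all genes. The 10 genes were proposed with earlier results of these data known, so the count describes them and is no independent evidence.

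JUND changed most. Its level with CPI203 was 7.67, 10.12 and 9.93 and with Combo 7.70, 10.07 and 9.82, against 7.30, 8.37 and 7.35 with LenDex and 7.15, 7.76 and 7.32 in control. Within each line the arrays with CPI203 lay above both arrays without it. The average rise was 3.20-fold (1.68 ± 0.29 log2 units, SE, adjusted p = 0.0191 in limma), rank 6 of 15173 genes by size.

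FOS, the JUN partner that gives the most active dimers, behaved likewise at a lower level. It was at 6.11, 7.36 and 6.69 with CPI203 and at 6.39, 7.31 and 6.03 with Combo, against 5.62, 5.88 and 5.34 with LenDex and 5.82, 5.51 and 5.47 in control. Here too the arrays with and without CPI203 did not overlap within any line. The rise was 1.04 ± 0.19 log2 units (adjusted p = 0.0194 in limma). Its arrays without CPI203 (5.34 to 5.88) lay at or little above the levels of FOSB, FOSL1 and FOSL2, so no fold is given. JUND and FOS were the 2 members separated in this way, where 2.96% of all genes were.

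ATF3 was near the array median in ARP1 and far above it in the other lines. With CPI203 it was at 5.00, 9.61 and 10.03 and with Combo at 6.33, 9.41 and 9.84, against 5.34, 7.91 and 8.25 with LenDex and 5.17, 7.92 and 8.32 in control. On the JJN3 and RPMI-8226 arrays the levels with CPI203 lay above those without it in both backgrounds. In ARP1 CPI203 alone gave -0.16, and the Combo array stood 0.99 above the LenDex array. The average rise was 2.33-fold (1.22 ± 0.25, adjusted p = 0.0258).

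EGR1 was the riser whose average over both backgrounds was most even between lines. It was at 8.40, 9.56 and 8.81 with CPI203 and at 8.05, 9.32 and 8.37 with Combo, against 6.93, 8.36 and 7.71 with LenDex and 8.06, 8.48 and 7.76 in control. The line averages were 0.73, 1.02 and 0.85, and the mean rise was 1.82-fold (0.87 ± 0.13, adjusted p = 0.0141). Neither background alone was as even. CPI203 against control gave 0.34, 1.08 and 1.05, and Combo against LenDex gave 1.12, 0.96 and 0.66. Leaving out the control array of JJN3, EGR1 still rose (0.79, adjusted p = 0.0436) and no other member passed.

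JUN was at 7.25, 10.45 and 10.32 with CPI203 and at 8.03, 10.43 and 10.21 with Combo, against 8.04, 9.75 and 9.31 with LenDex and 6.66, 8.93 and 9.05 in control. It was higher with CPI203 in 5 of 6 pairs of arrays of the same line and background. The exception was ARP1 with LenDex, where the difference was -0.01. The rise averaged 1.77-fold (0.82 ± 0.19, adjusted p = 0.035).

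JUNB was at 7.18, 10.52 and 9.63 with CPI203 and at 6.66, 9.65 and 9.18 with Combo, against 6.53, 8.77 and 7.28 with LenDex and 7.13, 9.59 and 8.51 in control. It rose 1.78-fold on average (0.84 ± 0.21, adjusted p = 0.0413), and its line averages were 0.09, 0.91 and 1.51. IER2, at 9.96, 10.92 and 10.46 with CPI203 and 9.73, 10.68 and 10.11 with Combo, against 9.56, 9.87 and 9.16 with LenDex and 9.90, 10.32 and 9.69 in control, rose 1.47-fold (0.56 ± 0.12, adjusted p = 0.0283). The arrays with and without CPI203 overlapped in ARP1 for both genes. Together with JUND, FOS and EGR1 these genes were higher in all 6 pairs, as were 7.61% of all genes.

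The calls needed the arrays of both JJN3 and RPMI-8226. When either of these lines was left out, or their arrays were averaged, neither a member nor any other gene passed in these smaller fits, while all 7 changes stayed positive (JUN 0.69 without either line, against 0.82 with all arrays). When only the control array of JJN3 was left out, EGR1 passed, as 1 of 118 genes called. When ARP1 was left out all 7 passed, with 2399 genes called, against 1105 with all lines.

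**Figure D1:**
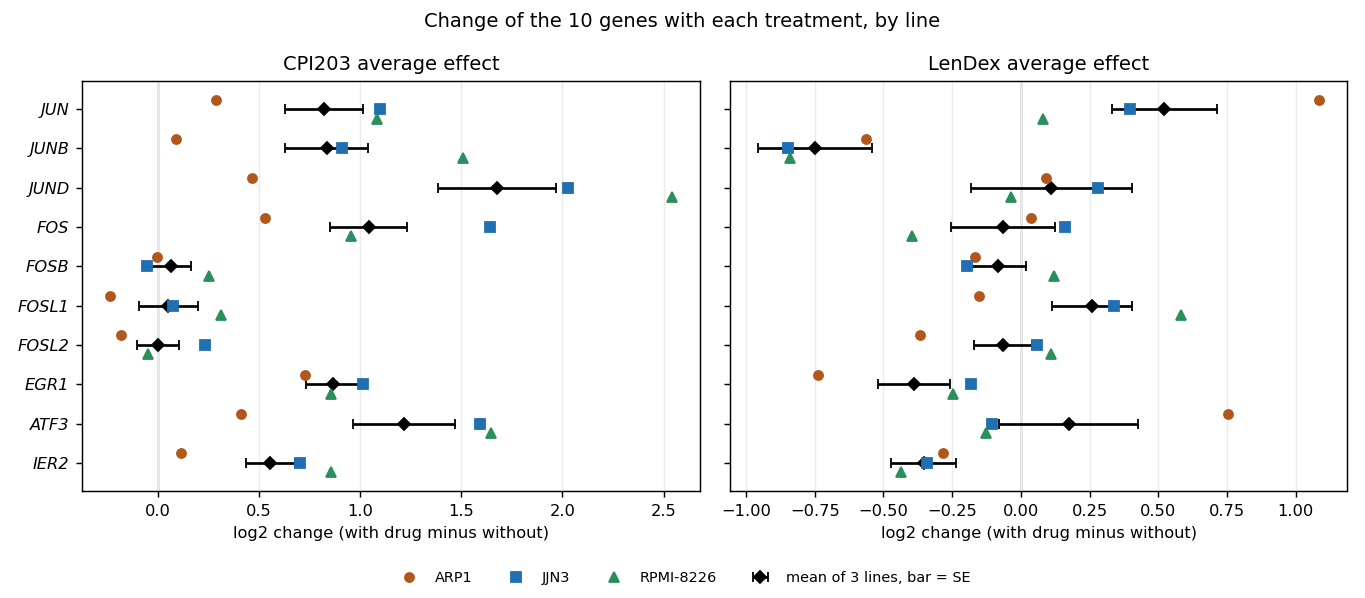
Log2 change of the 10 genes with CPI203 (left) and with LenDex (right), averaged over both backgrounds of the other treatment (coloured points: each line; black diamonds: mean of 3 lines with its SE). The JUND rise with CPI203 was 2.03 in JJN3 and 2.54 in RPMI-8226 against 0.46 in ARP1, and JUNB moved up with CPI203 and stood at -0.75 with LenDex.

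The size of the CPI203 effect was compared between lines with a moderated F test in limma. JUND was the 1 member called (adjusted p = 0.0467), where 0.323% of all genes were called. Its line averages were 0.46, 2.03 and 2.54. For the other risers the adjusted p lay above the threshold, at 0.124 for JUNB, 0.155 for IER2, 0.212 for FOS, 0.236 for ATF3, 0.378 for JUN and 0.825 for EGR1, although ARP1 had the smallest rise of the 3 lines for each. The line with the small rise was the one with high SDC1 and PRDM1 and low B cell transcripts, though IRF4 was not higher there. HEXIM1 also changed least in that line. The part of either difference in the result was not tested. No member was called as different without the JJN3 control array, nor with probe sets tested singly.

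The comparison within each background gave the same direction with less precision. For CPI203 against control no member passed in limma, 7 had an unadjusted p under 0.05, and 0.00659% of all genes passed. JUND stood at 1.83 ± 0.41 (adjusted p = 0.103), JUN at 1.12 ± 0.27 (0.108), FOS at 1.12 ± 0.27 (0.108), ATF3 at 1.08 ± 0.36 (0.183), EGR1 at 0.82 ± 0.19 (0.103), JUNB at 0.70 ± 0.29 (0.278) and IER2 at 0.47 ± 0.17 (0.208), each with its SE and adjusted p. Without ARP1, all 7 of these passed, with 1015 genes called, against 1 with all lines. For Combo against LenDex again no member passed, 6 had an unadjusted p under 0.05, and 0% of all genes passed. The changes there were 1.52 ± 0.41 for JUND, 1.36 ± 0.36 for ATF3, 0.97 ± 0.29 for JUNB, 0.96 ± 0.27 for FOS, 0.91 ± 0.19 for EGR1, 0.64 ± 0.17 for IER2 and 0.52 ± 0.27 for JUN. The means in these comparisons come from different arrays, but both comparisons were taken from the same fit over all groups. They share its estimate of the spread (the SE for JUND was 0.41 in both), so their p-values are not independent. The interaction of the drugs, which asks whether CPI203 acted differently with LenDex present, was not called for any member (0 with an unadjusted p under 0.05, and 0% of all genes called). JUN had the largest value, at -0.60 ± 0.38, negative in all 3 lines.

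With LenDex JUN stood higher and JUNB lower, and neither passed. The difference between them was not tested. Against control, JUN on the LenDex arrays differed by 1.38, 0.82 and 0.27, and JUNB by -0.61, -0.82 and -1.23. Averaged over both CPI203 backgrounds JUN was at 0.52 ± 0.19 (adjusted p = 0.172) and JUNB at -0.75 ± 0.21 (adjusted p = 0.0752, rank 33 of 15173 genes by size of decrease). EGR1 was at -0.39 ± 0.13 (adjusted p = 0.136) and IER2 at -0.35 ± 0.12 (adjusted p = 0.133). On the probe sets used, JUNB, EGR1 and IER2 were lower with LenDex in all 6 pairs of arrays, as were 8.28% of all genes. The next 2 brightest EGR1 probe sets stood at -0.26 and -0.01. Both were higher with LenDex than in control in RPMI-8226. No member was called in this average in limma (4 with an unadjusted p under 0.05), where 4.25% of all genes were. Against control alone no member passed either, with 0.461% of all genes called and 4 members with an unadjusted p under 0.05. When ARP1 was left out, 2 members passed: JUNB fell by 0.84 and IER2 by 0.39, with 918 genes called, against 645 with all lines. JUND (0.11 ± 0.29), FOS (-0.07 ± 0.19) and ATF3 (0.17 ± 0.25) had no common direction across lines.

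The largest line average with LenDex among the 7 genes was that of JUN in ARP1, at 1.09. JUN there was at 8.04 with LenDex and 8.03 with Combo, against 7.25 with CPI203 and 6.66 in control, so the arrays with LenDex lay above those without it, and Combo was level with LenDex. In JJN3 and RPMI-8226 the order was different, with CPI203 (10.45 and 10.32) and Combo (10.43 and 10.21) above LenDex (9.75 and 9.31) and control (8.93 and 9.05). EGR1 in ARP1 was at 6.93 with LenDex and 8.05 with Combo, against 8.06 in control. The line difference in the LenDex effect was not called for JUN (adjusted p = 0.362) or EGR1 (adjusted p = 0.52), nor for any other member in limma (3 with an unadjusted p under 0.05), where 0.369% of all genes were called.

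Combo against control asks for the net result of all 3 drugs. JUND rose 3.46-fold (1.79 ± 0.41, adjusted p = 0.029), ATF3 2.62-fold (1.39 ± 0.36, adjusted p = 0.0405) and JUN 2.54-fold (1.34 ± 0.27, adjusted p = 0.0178), each in 3 of 3 lines in limma. These were 3 of the 10 members, where 3.55% of all genes rose. With the mean of all probe sets of a gene ATF3 stood at 0.61 (adjusted p = 0.0598) and was no longer called, while FOS was (0.57, adjusted p = 0.0421). FOS stood at 0.98 ± 0.27 (adjusted p = 0.0505). JUNB, EGR1 and IER2, which stood lower with LenDex alone, were at 0.09 ± 0.29, 0.48 ± 0.19 and 0.20 ± 0.17 and did not pass (adjusted p = 0.903, 0.145 and 0.519). Against CPI203 alone, on the probe sets used, the Combo arrays had JUNB at -0.62 ± 0.29, EGR1 at -0.34 ± 0.19 and IER2 at -0.27 ± 0.17. These were lower in 3 of 3 lines each, and JUN stood at 0.22 ± 0.27. No member passed in that comparison (0 with an unadjusted p under 0.05, and 0.0461% of all genes called). The 3 calls against control were lost when JJN3, RPMI-8226 or the control array of JJN3 was left out, the last with 300 genes called, when those labels were averaged, and when just the 6 arrays compared were fitted. When ARP1 was left out 6 members passed, with 2219 genes called, against 1388 with all lines.

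Once line means were taken off, the 7 genes moved together over the 12 arrays to different degrees. The closest pair was JUNB and IER2, with Pearson r = 0.97, followed by JUND with ATF3 (0.92) and with FOS (0.90). JUN was the least alike, with r = 0.35 to JUNB and 0.36 to EGR1. Over the 21 pairs the median was 0.76, while the 24 pairs that include FOSB, FOSL1 or FOSL2 had a median of 0.16. The arrays share treatments, lines and normalisation, so these values describe the pattern only. By the same measure the genes outside the list most like each riser were TOLLIP, TOB1 and DCXR for JUND (each r = 0.99), SQSTM1 (0.98), FBXO30 and MRNIP for JUNB, RDH10 (0.98), MRNIP and RANBP9 for IER2, AURKB (0.97), OAZ2 and OR2B6 for FOS, MAP1LC3B (0.97), FBXL12 and SARAF for ATF3, COQ10A (0.97), SQOR and RYBP for JUN, and AACS (0.95), TIMM29 and TGFB1 for EGR1.

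Genes with several probe sets allowed a check within the array. Of the 37 probe sets 34 passed the level filter and 14 had a mean level of 6 or more. Of those 14, 11 rose with CPI203 when probe sets were tested singly, where 2.25% of 35458 probe sets rose. The other 3 belonged to JUN, and stood at 0.57 to 0.73 against 0.82 for the JUN probe set used here. In ARP1, 1 of these 3 was lower with CPI203 (6.18) than in control (6.57), and lower with Combo (6.99) than with LenDex (7.28). The other 2 went up with CPI203 in 1 ARP1 background and down in the other. A rise of JUN in ARP1 thus rests on the probe set used. The 3 brightest probe sets of ATF3 rose by 1.22, 1.21 and 1.34, and those of EGR1 by 0.87, 0.95 and 0.69. A FOS probe set with a mean level of 5.71 rose by 1.19, beside 1.04 for the one used here, while the remaining 2 stood at 0.23 and 0.32. Dim probe sets of ATF3 and EGR1, with means between 4.97 and 5.64, stood between 0.04 and 0.61. With the mean of all probe sets of a gene the CPI203 rise was 0.65 for ATF3 and 0.48 for EGR1 (adjusted p = 0.0207 and 0.0144 in limma). JUNB, JUND and IER2 had 1 probe set each, so no second probe set bears on their values.

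**Figure D2:**
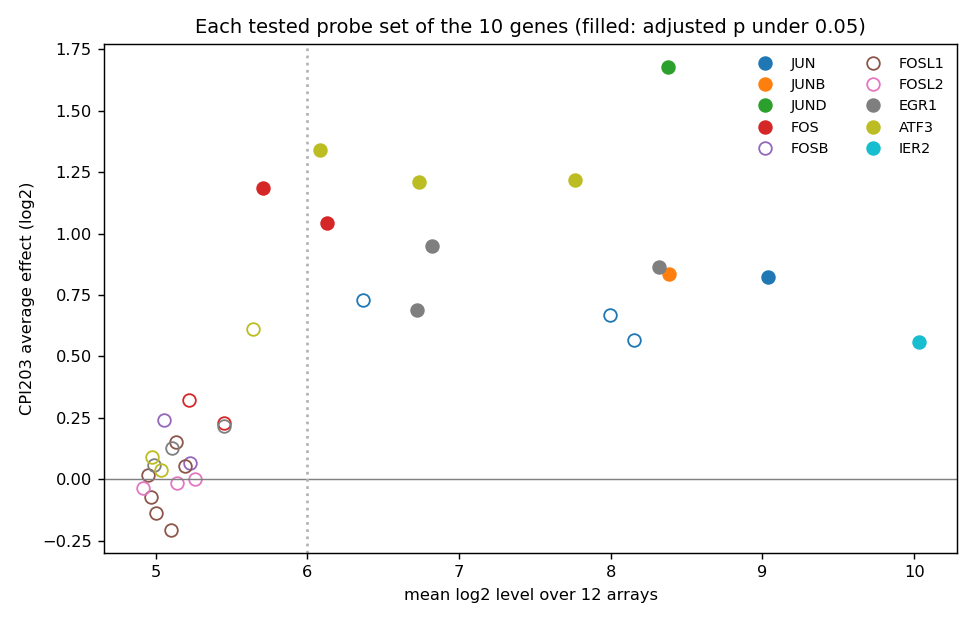
CPI203 average effect (log2) against the mean log2 level of each of the 34 tested probe sets of the 10 genes; filled points have an adjusted p under 0.05 and the dotted line marks a mean level of 6. Of the 14 probe sets past that line 11 rose, and the open points there are the 3 further JUN probe sets.

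Promoter sequence was held in the RefSeq table (GRCh38.p14) for 9 of the 10 genes, all but FOSL1, and is shown for JUND, EGR1, FOS and JUNB, the risers whose first annotated start has a searched motif in the 250 bases upstream of it. The motifs were looked for on both strands, and capitals mark the matches. They were the AP-1 element TRE (TGANTCA), the CRE bound by ATF and CREB dimers (TGACGTCA), the CArG box bound by serum response factor, the TATA box (TATAAA), the glucocorticoid receptor hexamer (TGTTCT), the EGR1 site (GCGTGGGCG) and the NF-kB site. JUND (chr19:18281623-18281872, minus strand) holds a CRE, EGR1 (chr5:138465229-138465478, plus strand) holds 2 CArG boxes, and FOS (chr14:75278578-75278827, plus strand) and JUNB (chr19:12791236-12791485, plus strand) hold a TATA box.
JUND: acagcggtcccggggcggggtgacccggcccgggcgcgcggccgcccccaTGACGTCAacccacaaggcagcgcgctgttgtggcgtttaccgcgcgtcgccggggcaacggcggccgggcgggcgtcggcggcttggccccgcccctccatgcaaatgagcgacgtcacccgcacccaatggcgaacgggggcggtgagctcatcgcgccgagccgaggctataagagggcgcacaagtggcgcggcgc
EGR1: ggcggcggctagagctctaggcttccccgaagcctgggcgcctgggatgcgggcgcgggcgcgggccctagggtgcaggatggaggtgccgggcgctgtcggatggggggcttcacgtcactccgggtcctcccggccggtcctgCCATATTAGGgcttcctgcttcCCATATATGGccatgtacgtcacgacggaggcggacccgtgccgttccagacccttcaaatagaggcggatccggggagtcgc
FOS: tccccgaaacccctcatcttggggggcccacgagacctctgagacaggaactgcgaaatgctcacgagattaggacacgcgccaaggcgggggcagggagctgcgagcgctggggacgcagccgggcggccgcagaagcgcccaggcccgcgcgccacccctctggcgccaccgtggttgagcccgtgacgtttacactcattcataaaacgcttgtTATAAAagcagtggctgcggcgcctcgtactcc
JUNB: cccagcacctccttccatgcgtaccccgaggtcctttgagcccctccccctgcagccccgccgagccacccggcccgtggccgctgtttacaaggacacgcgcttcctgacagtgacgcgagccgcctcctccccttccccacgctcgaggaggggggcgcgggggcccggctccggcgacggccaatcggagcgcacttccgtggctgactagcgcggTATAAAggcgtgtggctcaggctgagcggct
Of 35116 promoters listed, 1.65% held a CRE, 1.16% a CArG box and 10.7% a TATA box in this window. The TRE, present in 6.57% of promoters, the NF-kB site (5.21%) and the EGR1 site (0.72%) had no match in the windows of the 9 genes. The glucocorticoid hexamer, present in 12.4%, was matched in FOSB, which also has a TATA box. The upstream window of a second ATF3 start has a TATA box as well, whose first base is at -230 from that start. JUN, FOSL2, IER2 and the first ATF3 start had no match to any of these motifs. A match describes letters in a window and not binding.

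Genes that work with these factors moved less uniformly. Of 23 other immediate early genes 7 rose with CPI203 on average and 1 fell (median 0.20), where 3.3% of all genes rose and 7.28% were called. The RNA decay factor ZFP36 rose by 1.23, the stress sensor GADD45B by 1.05, the phosphatase subunit PPP1R15A by 0.86 and IER3 by 0.70, while MYC fell by 0.51. When the control array of JJN3 was left out, IER3 alone of these passed, and over all lists other than the cell type markers 2 of the 16 genes called did, IER3 and ELK4. Of 10 further bZIP partners none rose and 1 fell: BATF, which pairs with JUN proteins in lymphocytes, fell by 0.96 ± 0.16 (adjusted p = 0.0171), with -0.46, -0.98 and -1.42 across the lines. With Combo BATF fell by 1.26 ± 0.22 relative to control (adjusted p = 0.0121).

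Upstream of the early genes, 1 of 17 kinases and serum response factor complex genes rose with CPI203 and 1 fell, so 2 of 17 were called, where 7.28% of all genes were. The JNK gene MAPK9 rose by 0.66 and the ETS cofactor ELK4 fell by 0.53. With LenDex SRF itself fell by 0.52 ± 0.09 (adjusted p = 0.0181), lower in 3 of 3 lines, and the MAP kinase kinase MAP2K1 rose by 0.29 (adjusted p = 0.0497). Among 12 MAP kinase feedback genes the phosphatase DUSP5 rose by 0.53 and SPRY1 fell by 0.58 with CPI203, 2 of 12 against the same 7.28%. DUSP1, the phosphatase that glucocorticoids are known to induce, stood at -0.36 ± 0.19 with LenDex (adjusted p = 0.341). Its level was near the array median, at 5.04 to 5.67, except with CPI203 alone in JJN3 (6.66) and RPMI-8226 (6.27). With Combo these lines were at 5.59 and 5.67. None of the 4 measured EGR relatives and corepressors passed with CPI203 in limma (2 with an unadjusted p under 0.05). The EGR1 corepressor NAB2 was at 0.38 (adjusted p = 0.166) and NAB1 at -0.48 (adjusted p = 0.197).

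Of 12 known AP-1 targets tested none was called with CPI203 in limma (2 with an unadjusted p under 0.05, median 0.00), where 7.28% of all genes were. The median level of the 15 targets on the array was 4.89 to 5.42, near the median of all probe sets. Changes in many of them are hard to detect at such signals. CD44 was at 0.23 (adjusted p = 0.169) and VEGFA at -0.21 (adjusted p = 0.19). With LenDex 1 of the 12 was called, where 4.25% of all genes were. The target called was the heme oxygenase gene HMOX1, which fell by 1.45 ± 0.14 (adjusted p = 0.00213). The early gene KLF6 rose with LenDex by 1.32 ± 0.27 (adjusted p = 0.0295), the 1 called gene of 23 on that list, near the same 4.25%. Of 6 genes listed for glucocorticoid signalling, 2 rose with LenDex, TSC22D3 and FKBP5 (1.87 ± 0.09), where 4.25% of all genes were called.

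Heat shock genes, which mark handling and proteotoxic stress, moved in part with the same arrays. Of 10, 3 rose with CPI203 on average (median 0.26), where 3.3% of all genes did: HSPA1B by 0.86, DNAJB1 by 0.68 and BAG3 by 0.60. By line the HSPA1B change was 0.20, 0.98 and 1.39. The summed level of the list, as log2, was 15.18 to 15.36 with CPI203, 14.85 to 15.04 with LenDex and 15.02 to 15.07 with Combo, against 14.98 to 15.15 in control. When the control array of JJN3 was left out no heat shock gene passed. The part of this response in the rise of the early genes was not tested. Markers of monocytes had a median of at most 5.10 and those of fibroblasts of at most 4.99 on every array, under the array median.

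**Figure D3:**
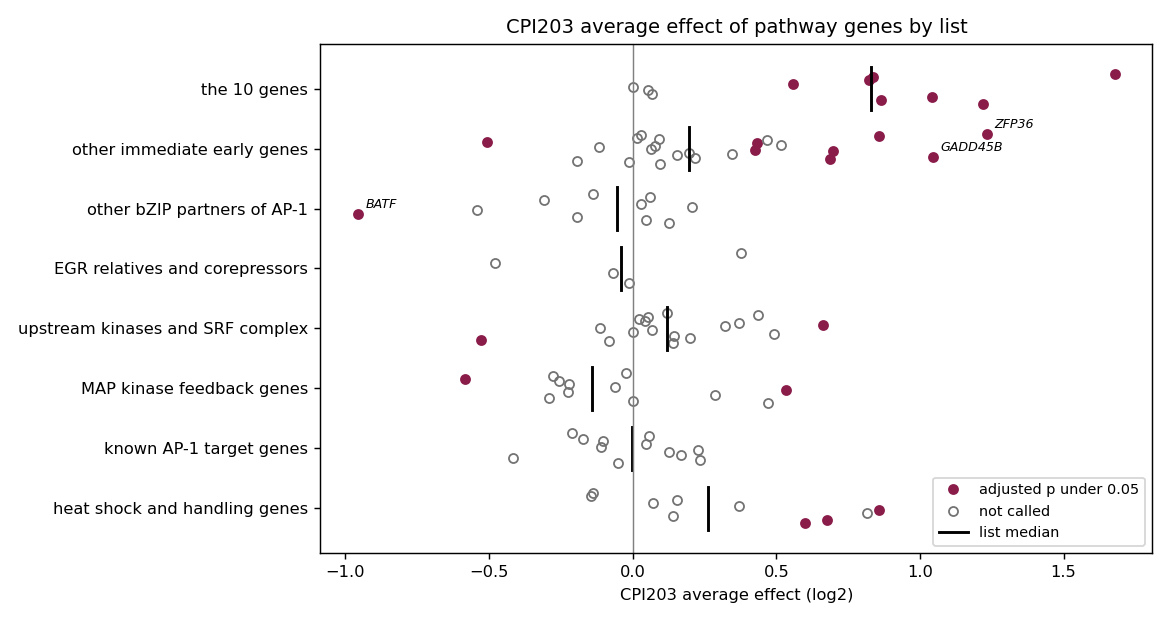
CPI203 average effect (log2) of each tested gene by list (filled: adjusted p under 0.05; open: not called; black bar: list median). The 10 genes had a median of 0.83, the other immediate early genes 0.20 and the known AP-1 targets, many of them near the array median level, 0.00.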

How the data were processed

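A set of 12 RNA samples (3 myeloma lines, 4 treatments, n = 3 a group) was measured on Affymetrix arrays from 150 ng of total RNA, per the labels' protocols. The authors deposited log2 levels per probe set. The submitters' processing notes name RMA and, as software, Expression Console 1.1 from Affymetrix. RMA gives every array 1 distribution, so a change is one relative to most other transcripts.

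Of 49386 probe sets 45253 had 1 gene symbol, 1327 several and 2713 none; the 93 control probe sets were left out. Symbols were updated through RefSeq for 45172. Each gene was represented by its brightest probe set and tested where its log2 level reached 5 on 3 arrays, by limma 3.58.1 (R 4.3.3) with line and group as terms (6 residual degrees of freedom), two-sided, with Benjamini-Hochberg adjustment over 15173 genes and calls at an adjusted p under 0.05. The block comes from the labels: same-named arrays are of 1 line, and their deviations from group means correlated at 0.82 to 0.938. No such value between labels is given, so this range cannot show that JJN3 and RPMI-8226 are separate blocks. The line difference was a moderated F test of line by drug terms (3 residual degrees of freedom). The fit was tested on simulated data. The p-values of the other comparisons measure the spread between these 3 lines, since each has 1 array per treatment, and the number of arrays limits precision. They take JJN3 and RPMI-8226 as separate lines, although arrays of the 2 labels were much alike (r of 0.963 to 0.981). With those arrays averaged no gene was called in the CPI203 average effect.

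The 10 genes and all lists were chosen with earlier results of these data known. Named outside them were the called genes of each list with the largest changes (at most 4 a direction), or those with the smallest p, and the 3 genes most like each riser. Alternatives covered the level filter, probe sets, variance model, normalisation, left-out lines and arrays, and the block.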

Additional observations from a re-analysis of the deposited data

Results flagged for a closer look

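The rise of JUND with CPI203 differed between lines, with line averages of 0.46 (ARP1), 2.03 (JJN3) and 2.54 (RPMI-8226) and an adjusted p of 0.0467 in limma's moderated F test. With a variance trend and robust fit 4 members were called as different between lines, and without the JJN3 control array none was. Groups of 3 arrays are too small for a test of single arrays that stand apart.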

How the results depend on the processing

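For the CPI203 average effect, every one of 84 values of the 7 risers under the 12 alternatives run was positive, and 50 of them were called. The number of members called was 7 in the fit reported, and 0 to 7 when a line or the JJN3 control array was left out, 0 after averaging the arrays labelled JJN3 and RPMI-8226, and 0 with no replicate block. With the level filters, probe set rules, variance model and cyclic loess it stayed at 7. For Combo against control 3 were called, 0 to 6 with a line or array left out, 0 with the labels averaged, 0 with no replicate block and 0 in the 6 arrays alone. For CPI203 against control none was called, against 2 with a variance trend and robust fit and 0 to 7 with a line or array left out. For Combo against LenDex none was called, against 1 with the robust fit and 0 to 6. For the LenDex average none was called, against 0 to 2. For the CPI203 effect compared between lines 1 was called, against 4 with the robust fit, 0 with probe sets tested singly and 0 without the JJN3 control array. The CPI203 average count of all genes was 1105, against 118 without the JJN3 control array. The causes were not tested, and fits that leave out a line or an array also hold fewer arrays.

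Values that changed sign were JUNB in Combo against control (-0.21 without RPMI-8226 and -0.055 with the labels averaged), JUN in Combo against CPI203 (-0.0653 without ARP1), and in the LenDex average JUND (-0.00481 without the JJN3 control array), FOS (0.10 without RPMI-8226) and ATF3 (-0.0393 with the mean of its probe sets and -0.12 without ARP1), none of them called. The average and interaction effects use all 4 groups, so a fit of the compared arrays alone is the fit reported. The motif search for TGACTCA or TGAGTCA alone gave 0 of 9 genes, as did the wider TRE.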

Other observations

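ATF3 in ARP1 was at 6.33 with Combo, against 5.00 with CPI203, 5.34 with LenDex and 5.17 in control, which are near the array median. A further ATF3 probe set was at 5.45 with Combo, against 5.05 with CPI203, 4.93 with LenDex and 4.82 in control, and another at 5.63 with Combo, against 5.64 with CPI203, 4.63 with LenDex and 5.39 in control. In a further one the order was turned, at 5.01 with Combo, against 5.29 with CPI203, 5.43 with LenDex and 5.22 in control. These are 1 array each, with no replicate check.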
